A study of Mus musculus with 26 samples.

Results

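Maturing P2ry12-high microglia were taken from 12 single-cell RNA libraries of sorted embryonic mouse microglia. A barcode with 500 genes or more and with 20% or less of its UMIs (unique molecular identifiers, 1 per captured RNA molecule) from mitochondrial genes was a member when 9 genes met limits set on their UMIs. P2ry12 had to reach 5 UMIs per 10000 and 3 UMIs, and Csf1r plus C1qa had to reach 2 UMIs. Ms4a7 had to be at 0, Top2a plus Mki67 at 1 UMI or less, and both Spp1 and the sum of Ccl3 and Ccl4 below 20 per 10000. Of 37948 embryonic microglia barcodes past the gene and mitochondrial filter, 16545 (43.6%) were members. The whole series held 109847 barcodes past that filter in 26 libraries.

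The animals were wild type C57Bl/6N mice. Dams were injected intraperitoneally at E12.5 (E for embryonic day) with poly(I:C), a mimic of viral double-stranded RNA that causes maternal immune activation (MIA), or with saline, and each treatment had 3 libraries at E13.5 and 3 at E15.5. All 12 libraries were of Cd11b+, Cx3cr1+, Cd45low cells sorted from the prospective somatosensory cortex with the meninges removed. Embryos of both sexes were pooled in a library, which limits each library to an average over animals, and apart from a replicate number no label says that the libraries of a group came from separate litters, so that p-values measure the spread between these libraries, which may be technical. Sorted microglia of P14 (P for postnatal day) offspring of such dams, from 4 libraries after saline (1 of them from females, 1 from males and the others mixed) and 2 mixed libraries after MIA, were used for levels only. The labels give no sequencing batch, so that age and a batch by age cannot be told apart.

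Microglia are the resident macrophages of the brain parenchyma. They descend from yolk sac progenitors, enter the neural tube before birth, divide there and take on an adult, homeostatic programme step by step. P2ry12 encodes the ADP receptor that steers microglial processes towards damaged cells, Csf1r the receptor for the growth factors that keep microglia alive, and C1qa a chain of the complement component C1q, while Ms4a7 marks the border macrophages of meninges and vessels, and Top2a and Mki67 mark cells in division.

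The number of members ranged from 60 to 3442 in a library. The E13.5 saline libraries 1 to 3 held 231, 351 and 551, and the E13.5 MIA libraries 60, 78 and 1061. The E15.5 saline libraries held 2425, 1978 and 3442, and the E15.5 MIA libraries 3017, 2395 and 956. The UMIs summed over members ran from 1244797 in E13.5 MIA replicate 2 to 31420455 in E15.5 saline replicate 3, so that the sums of libraries with few members are the less precise. The median member had 10126 to 26304 UMIs at E13.5 and 8710 to 11955 at E15.5.

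Some libraries stood apart or shared barcodes. In E15.5 saline replicate 1, 32.2% of the barcodes with Csf1r and C1qa were dividing, against 8.54% to 14% in the other E15.5 libraries and 40.3% to 50.7% at E13.5. E15.5 MIA replicate 1 held 786 barcodes of neurons, and its members had a summed level of 2306 CPM (UMIs per 1000000) over 16 immediate-early genes against 727 to 880 CPM in the other E15.5 libraries. The same cell barcodes also turned up in different libraries, 0 to 230 of them in each of the 66 pairs of the 12 libraries. E13.5 MIA replicate 2 had 230 barcodes (61.3%) in common with E15.5 MIA replicate 3, with more UMIs in the former for all 230. The profiles of the same barcode in both had a median correlation of 0.844, against 0.612 between one such barcode and the next on the list. Each of these libraries also had 157 barcodes in common with E15.5 saline replicate 3 (median correlations 0.758 and 0.797). The members with an Xist or Tsix UMI, a sign of female cells, were 6.35% in E13.5 saline replicate 3 and 16.1% in E15.5 MIA replicate 1. They were 24.5% to 52.8% in the other libraries. Among members, the barcode was found in another library as well for 65 of 78 in E13.5 MIA replicate 2 and 26 of 60 in E13.5 MIA replicate 1, against 58 of 956 in E15.5 MIA replicate 3 and 86 of 3442 in E15.5 saline replicate 3. The shares and the number of genes called for age or MIA are given also without such libraries or without the shared barcodes, whereas the counts of gene lists are given so only where this is stated and the comparison with dividing microglia was not recomputed without shared barcodes.

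The members carried the markers of microglia, and some also held RNA of genes that mark other cells. After thinning to 4000 UMIs, which 15142 of the members reached, Fcrls (an Fc receptor-like protein) was found in 99.1% of them, Trem2 (a lipid-sensing receptor) in 98.2% and Cx3cr1 (the fractalkine receptor) in 97.3%. Tmem119, a membrane protein of microglia, was found in 69.3% and Sall1, a transcription factor of microglial identity, in 45.6%. Barcodes of neurons were those with at least 5 UMIs of Tubb3, Dcx and Stmn2 together and at most 1 of Csf1r, Fcrls and Cx3cr1. In 673 of them at the same depth, Tmem119 was found in 1.93% and Sall1 in 1.78%. As they were picked for little microglial RNA, such shares can understate how far free RNA of microglia reaches. Of the border macrophage markers, Pf4 was found in 1.40% of members, Lyve1 in 0.119% and Cd163 in 0.00660%. Mrc1 and Dab2 were found in 21.5% and 21.4% of members (33.1% and 40.9% without thinning), 0.594% and 1.19% of neuron barcodes and 69.3% and 54.5% of Ms4a7-positive barcodes. Of the markers of blood myeloid cells, Ccr2, which marks monocytes, was found in 0.198% of members and S100a8 in 0.0132%. Plac8 was found in 2.02% of members and 0.149% of neuron barcodes, and Ly6c2 and S100a9 were found in 0% of members. The neuronal tubulin Tubb3 was found in 10.8% of members and in 98.2% of neuron barcodes, which were picked by it. Of the neuron barcodes 0 were members, which their limit on microglial genes all but set in advance. Sox11, a factor of young neurons, was found after thinning in 2045 of 15142 members and 671 of 673 neuron barcodes. Without thinning, Sox11 was found in 27.3% and 96.5%. Of the endothelial markers after thinning, Pecam1 was found in 6.91% of members and 0.297% of neuron barcodes. Kdr was found in 1.34% and 0%, and Cldn5 in 0.231% and 0.297%.

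Members made up a larger share of microglia at E15.5 than at E13.5. The denominator was every barcode with at least 2 UMIs of Csf1r plus C1qa. At E13.5 the share was 20.5%, 20.0% and 17.6% in the saline libraries and 22.4%, 22.0% and 18.1% in the MIA libraries. At E15.5 it was 44.5%, 67.8% and 77.0% after saline and 63.1%, 70.8% and 68.1% after MIA. In the library with fewest barcodes, E13.5 MIA replicate 1, the exact binomial 95% interval was 17.5% to 27.9%, and in that with the lowest E15.5 share, saline replicate 1, it was 43.1% to 45.8%, both covering counting error only. No library of one age overlapped the other, and the lowest E15.5 value was that of saline replicate 1. The mean was 65.2% ± 11.1 (SD, n = 6) at E15.5 and 20.1% ± 1.96 (SD, n = 6) at E13.5, a difference of 45.1 percentage points (exact two-sided permutation test within treatment, p = 0.005, the smallest that 400 arrangements can give).

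**Figure D1:**
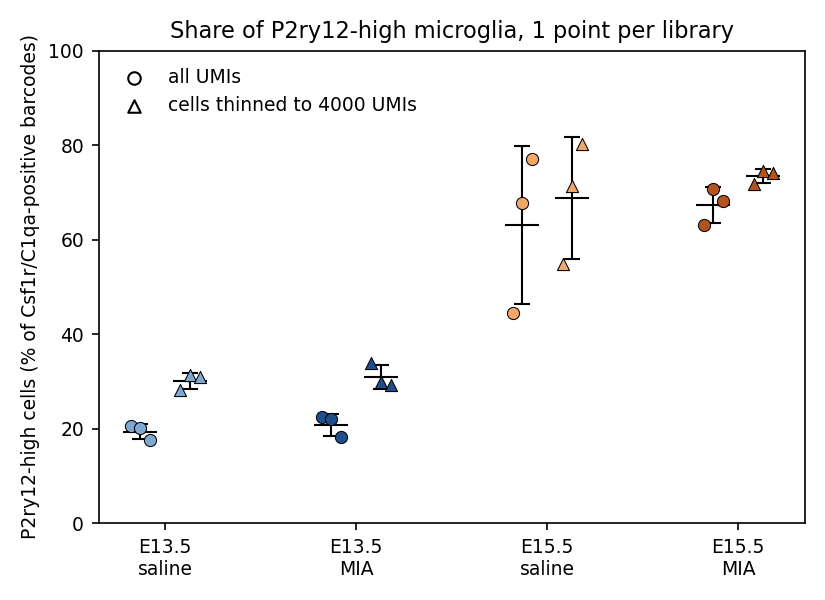
Share of P2ry12-high cells among barcodes with Csf1r and C1qa, in percent, by age and treatment, from all UMIs (circles) and after each cell was thinned to 4000 UMIs (triangles). Each symbol is 1 library, and the horizontal bars and whiskers are the mean and SD of 3 libraries. From all UMIs the E13.5 libraries lie between 17.6% and 22.4% and the E15.5 libraries between 44.5% and 77.0%.

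The ages kept this order when every barcode had the same depth. After thinning to 4000 UMIs, the share was 28.2% to 33.9% at E13.5 and 54.9% to 80.3% at E15.5, a difference of 40.6 points. Shallower barcodes were left out of it, which kept 227 to 4344 of 268 to 5849 barcodes at E13.5 and 1191 to 4543 of 1404 to 5453 at E15.5. Without the shared barcodes (left out once the data had been seen) the difference was 47.6 points, and without E15.5 saline replicate 1 it was 49.7 points. Read 1 criterion at a time, P2ry12 at 5 per 10000 was met by 64.8% to 69.8% of microglial barcodes at E13.5 and by 82.4% to 93.2% at E15.5. The limit on Top2a plus Mki67 was met by 42.7% to 53.1% at E13.5 and by 85.4% to 90.9% at E15.5, except for 64.1% in E15.5 saline replicate 1. Both criteria were met more often at E15.5.

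No difference in the share between MIA and saline was detected at either age. At E13.5 the saline libraries averaged 19.4% ± 1.57 and the MIA libraries 20.9% ± 2.36 (SD, n = 3 each, exact permutation test, p = 0.5). At E15.5 they averaged 63.1% ± 16.8 and 67.3% ± 3.89 (SD, n = 3 each, exact permutation test, p = 0.8). With 3 libraries against 3 the smallest p is 0.1. Without shared barcodes, which left 101 microglial barcodes in E13.5 MIA replicate 2 and 132 in E13.5 MIA replicate 1, the E13.5 difference was -0.947 points, and with each shared barcode kept once it was 1.05 points. Without E15.5 saline replicate 1 the E15.5 difference was -5.05 points.

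The level of P2ry12 in members, which the rule bounded from below, is given as a description, without a test. At E13.5 it was 1417, 1215 and 1130 CPM after saline and 1301, 1322 and 1143 CPM after MIA. At E15.5 it was 1904, 2268 and 2395 CPM after saline and 2693, 2339 and 2410 CPM after MIA. The ages did not overlap, and members of 6 P14 libraries chosen by the same rule, 28227 barcodes, were higher still at 5932 to 6448 CPM. The median member had 10.7 to 14.2 P2ry12 UMIs per 10000 at E13.5, 18.2 to 26.2 at E15.5 and 58.5 to 64.3 at P14. C1qa was at 3397 to 3906 CPM at E13.5 and 5002 to 6660 CPM at E15.5, without overlap, and Csf1r was at 1099 to 1622 CPM and 1450 to 2580 CPM, with overlap.

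**Figure D2:**
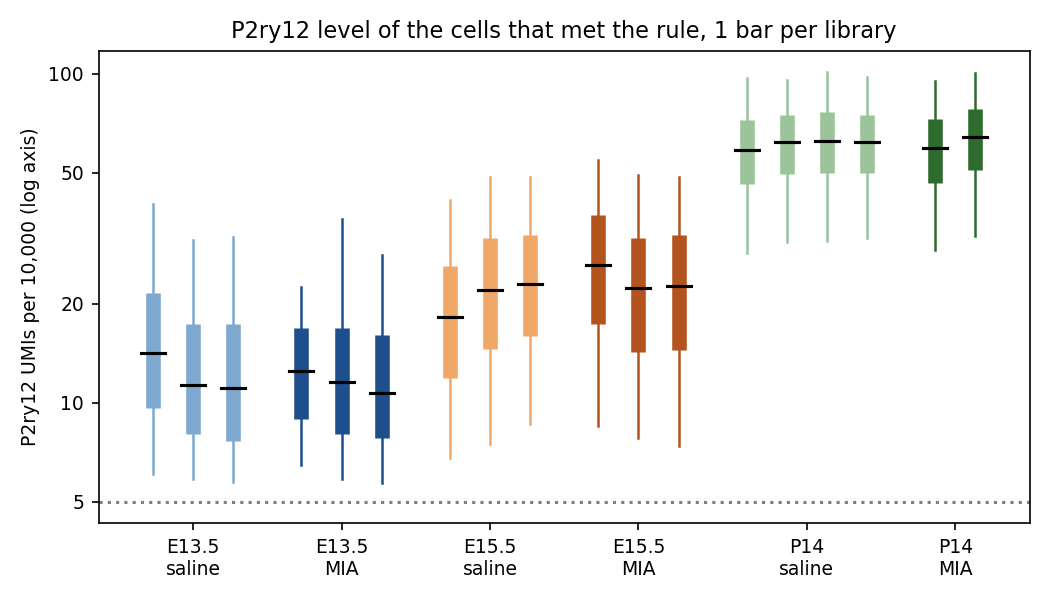
P2ry12 UMIs per 10000, on a log axis, in the cells that met the rule, with 1 bar for each of the 12 embryonic and 6 P14 libraries. Thin lines run from the 5th to the 95th percentile of cells, thick bars from the 25th to the 75th, black lines are medians and the dotted line is the limit of 5. The medians are 10.7 to 14.2 at E13.5, 18.2 to 26.2 at E15.5 and 58.5 to 64.3 at P14.

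The limit on P2ry12 had barcodes on both sides. Those that met every other criterion and had 5 to 6 P2ry12 UMIs per 10000 numbered 2 to 96 in a library, and those with 4 to 5, just outside, numbered 2 to 63. In E13.5 MIA replicate 3, the library with most of both, the 96 barcodes inside and 63 outside had median depths of 17251 and 16870 UMIs. The P2ry12 gene spans chr3:59216272-59262871 of GRCm38 on the minus strand. The 250 bases before its RefSeq start are shown because P2ry12 defines the cells described, and they hold neither of the letter strings searched for below, so that no base is in capitals (chr3:59262986-59263235, GRCm38.p6, minus strand, 5′ to 3′).
P2ry12: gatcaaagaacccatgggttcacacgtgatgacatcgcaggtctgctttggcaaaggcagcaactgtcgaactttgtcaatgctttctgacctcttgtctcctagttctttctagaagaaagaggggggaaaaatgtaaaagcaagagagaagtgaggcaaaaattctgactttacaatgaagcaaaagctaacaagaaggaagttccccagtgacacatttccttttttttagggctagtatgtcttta

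The most abundant RNAs of members are given as a description. Averaged over the 12 libraries, Tmsb4x (thymosin beta 4) had the highest level at 29111 CPM, followed by Actb (actin) at 15998 CPM and Malat1 (a nuclear long RNA) at 11814 CPM. Cst3 (the protease inhibitor cystatin C) was at 8165 CPM, Apoe (a lipid carrier) at 7011 CPM, C1qb at 6156 CPM, C1qc at 4599 CPM and the protease Ctsd at 4380 CPM. These are counts of 3′ ends, of which each RNA gives 1 whatever its length. The ribosomal protein and elongation genes among the highest, such as Fau at 5557 CPM and Eef1a1 at 5275 CPM, have near-identical pseudogenes, so that their counts are uncertain.

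Gene expression in members was then compared between the ages on UMIs summed per library. Of 12413 genes tested, 4661 (37.5%) passed an adjusted p of 0.05 (edgeR quasi-likelihood test with treatment as a term, Benjamini-Hochberg over all tested genes). Among them 2342 (18.9%) were higher at E15.5 and 2319 (18.7%) lower, and the median log2 fold change of all genes was 0.03. The 12 libraries of the 2 ages did not overlap for 2030 genes (16.4%). The call counts were smaller within 1 treatment, with 1690 genes in the saline and 1534 in the MIA libraries. Without the shared barcodes 3875 genes passed, and without both libraries under 100 members 3757.

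Among genes with a mean of at least 50 CPM the largest rises were led by Crybb1, which encodes a crystallin of the lens and is also made by microglia. Its levels at E13.5 were 229, 317 and 344 CPM after saline and 349, 219 and 368 CPM after MIA, and at E15.5 they were 955, 1556 and 1308 CPM after saline and 2512, 1536 and 1085 CPM after MIA. Every E15.5 library was above every E13.5 library, and E15.5 MIA replicate 1 was the highest. The rise was 4.79-fold (log2 2.26 ± 0.23, SE, adjusted p = 8.64e-06, edgeR). Crybb1 lies at chr5:112255815-112269585 of GRCm38 on the plus strand. The 250 bases before its RefSeq start are shown because it heads the 10 largest rises, and they too hold neither kind of string (chr5:112255570-112255819, GRCm38.p6, plus strand, 5′ to 3′).
Crybb1: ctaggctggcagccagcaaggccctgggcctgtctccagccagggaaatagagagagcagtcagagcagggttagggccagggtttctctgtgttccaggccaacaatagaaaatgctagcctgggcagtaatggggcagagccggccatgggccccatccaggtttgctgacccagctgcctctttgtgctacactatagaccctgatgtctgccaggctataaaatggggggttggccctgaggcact

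Sparc, a secreted protein that binds the extracellular matrix, lies at chr11:55394500-55423183 of GRCm38 and was far more abundant. At E13.5 it was at 913, 865 and 844 CPM after saline and 661, 803 and 917 CPM after MIA. At E15.5 it was at 2311, 3118 and 3273 CPM after saline and 3873, 3121 and 2637 CPM after MIA. The ages did not overlap, and the rise was 3.64-fold (log2 1.86 ± 0.14, SE, adjusted p = 9.53e-07, edgeR). Ecscr, a cell-surface protein known from endothelium, rose 3.89-fold from 29.1 to 42.3 CPM at E13.5 to 104 to 165 CPM at E15.5. Ltc4s, the enzyme that makes leukotriene C4, rose 3.45-fold from 190 to 257 CPM to 652 to 990 CPM. Abca9, an ABC transporter, rose 3.06-fold from 54.6 to 74.2 CPM to 105 to 268 CPM, with both replicate 1 libraries the lowest at E15.5. The other rises among the 10 largest were of Fscn1, which bundles actin (3.03-fold), Lag3, an inhibitory receptor (3.01-fold), Map1lc3a, a protein of autophagosomes (3.00-fold), Ppp1r9a, an actin-binding scaffold (2.95-fold), and Klhl24, an adaptor of a ubiquitin ligase (2.95-fold). Each of the 10 was called in the 23 settings that kept both treatments.

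**Figure D3:**
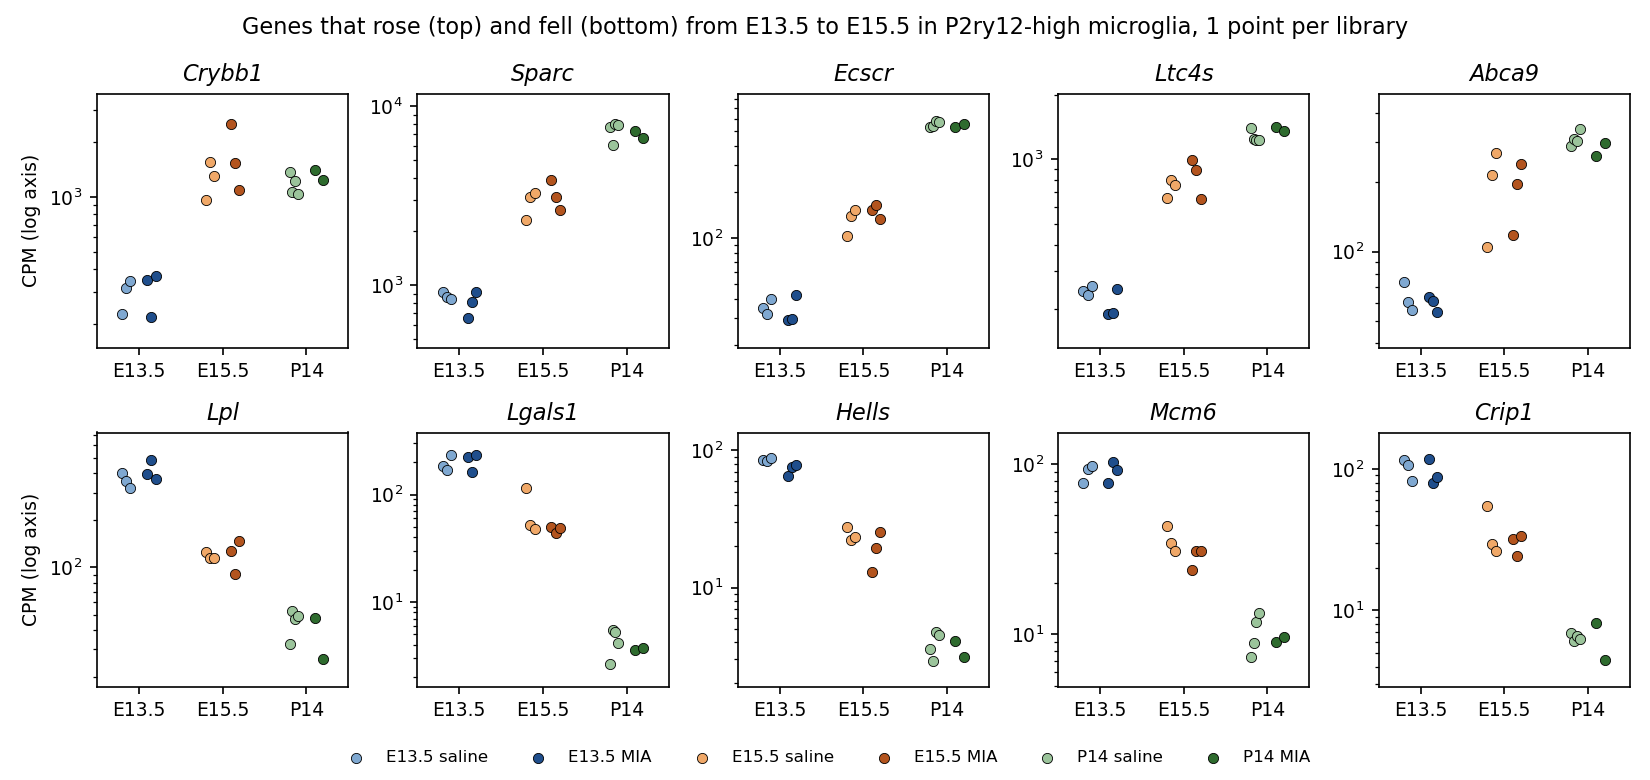
Levels in CPM, on a log axis, of 5 genes that rose (top) and 5 that fell (bottom) from E13.5 to E15.5 in P2ry12-high microglia, with P14 beside them. Each point is 1 library, and colours give age and treatment. The E15.5 libraries lie above the E13.5 libraries for Crybb1 and Sparc and below them for Lpl and Hells, and Crybb1 at P14 (1041 to 1410 CPM) lies within its range at E15.5 (955 to 2512 CPM).

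Among genes that fell, Hells (a chromatin remodeller that acts in DNA methylation, chr19:38930915-38971051) dropped 3.69-fold, from 65.0 to 87.7 CPM at E13.5 to 13.1 to 27.9 CPM at E15.5 (log2 -1.88 ± 0.14, SE, adjusted p = 9.53e-07, edgeR). Lpl, the lipoprotein lipase (chr8:68880491-68907448), was at 402, 358 and 322 CPM after saline and 393, 483 and 368 CPM after MIA at E13.5. It was at 125, 115 and 115 CPM after saline and 127, 90.8 and 147 CPM after MIA at E15.5. Its fall was 3.22-fold (log2 -1.69 ± 0.12, SE, adjusted p = 9.08e-07, edgeR), with no overlap of the ages. Lgals1 (galectin 1) fell 3.44-fold, to 115, 52.2 and 48.2 CPM after saline and 49.5, 43.7 and 48.3 CPM after MIA at E15.5, with saline replicate 1 the highest. Crip1 (a small LIM-domain protein) fell 2.95-fold, Hmgn2 (a nucleosome-binding protein) 2.89-fold, Mcm6 (a subunit of the replicative helicase) 2.82-fold, Cks1b (a subunit of cyclin-dependent kinases) 2.77-fold and Pcna (the sliding clamp of DNA polymerase) 2.71-fold. The histone gene Hist1h2bc fell 2.85-fold, and as a member of a family of near-identical genes its count is uncertain. AC160336.1, known only by its clone name, fell 3.03-fold (log2 -1.60 ± 0.39), and of the 10 falls it alone lost its call in any of the 23 settings that kept both treatments, in 1 of them.

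Homeostatic microglial genes rose as a group. Of 38 on the list, all tested, 28 rose, 0 fell and 10 did not pass, with a median log2 fold change of 0.62 against 0.03 for all genes, of which 18.9% rose and 18.7% fell. The ages did not overlap for 24 of the 38 (63.2%), against 16.4% of all genes. Among the 20 receptors and other surface molecules 13 rose. Adgrg1, an adhesion receptor, rose 2.95-fold from 15.8 to 28.0 CPM to 34.6 to 67.3 CPM, and Tmem119 rose 1.87-fold from 179 to 265 CPM to 367 to 462 CPM. Selplg, the P-selectin ligand, rose by 1.38 ± 0.12 on the log2 scale, the sialic acid-binding Siglech 1.93-fold, the lipid-sensing receptor Trem2 1.57-fold and Fcrls 1.52-fold. Among the 18 secreted proteins, enzymes and others 15 rose, and besides Crybb1, Sparc and Ltc4s these included the protease inhibitor Cst3 (log2 1.14 ± 0.13). Cx3cr1 did not pass, at 1639 to 2444 CPM at E13.5 and 1606 to 3009 CPM at E15.5 (log2 0.31 ± 0.14, adjusted p = 0.105, edgeR). The purine receptor P2ry13 (0.24 ± 0.16) and the TGF-beta receptors Tgfbr1 (0.29 ± 0.16) and Tgfbr2 (-0.12 ± 0.14, all log2) did not pass either. Within 1 treatment the number that rose was 22 in the saline and 20 in the MIA libraries, and it was 27 without both libraries under 100 members and 27 without the shared barcodes. P2ry12, by which the cells were chosen, was also higher at E15.5, and its part in the result was not tested.

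Of 19 transcription factors of microglial identity tested, 7 rose and 0 fell, with a median of 0.26, where 18.9% of all genes rose and 18.7% fell. Calls in either direction were near the 37.5% over all genes. The ages did not overlap for 2 of the 19 (10.5%), against 16.4% of all genes. Ets1 rose 1.94-fold from 19.8 to 27.8 CPM to 33.4 to 60.2 CPM (log2 0.95 ± 0.15, SE, adjusted p = 2.19e-04, edgeR), Mef2a 1.64-fold and Klf6 1.58-fold. Sall1 did not pass, at 170, 143 and 136 CPM after saline and 135, 190 and 118 CPM after MIA at E13.5 and at 122, 197 and 236 CPM after saline and 117, 196 and 262 CPM after MIA at E15.5 (log2 0.34 ± 0.18). Spi1, which encodes PU.1, was at 0.19 ± 0.11 and Irf8 at 0.21 ± 0.11, and neither passed. Without both libraries under 100 members, 3 factors rose rather than 7.

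In the complement list 5 of 10 tested genes rose and 1 fell, with a median of 0.41, where 18.9% of all genes rose and 18.7% fell. C1qc rose 1.61-fold, from 3330 to 3834 CPM to 4454 to 7302 CPM, and Itgam, the alpha chain of complement receptor 3, rose 1.8-fold, from 162 to 255 CPM to 298 to 460 CPM. C3 rose 2.29-fold, at 2.01 to 4.57 CPM at E15.5, and Itgax, the alpha chain of complement receptor 4, fell 1.74-fold. Itgb2, the beta chain of both receptors, was at 0.03 ± 0.10 on the log2 scale and did not pass. In the lysosome list 17 of 28 genes rose and 1 fell, with a median of 0.48, beside the same shares over all genes. Man2b1 (a mannosidase) rose 1.87-fold, Mcoln1 (a cation channel) 1.88-fold, Ctss (cathepsin S) 1.68-fold, Lamp1 (a membrane glycoprotein) 1.64-fold and Ctsd (cathepsin D) 1.5-fold, and Ctsc (cathepsin C) fell 1.72-fold. Tfeb, a transcription factor of lysosomal genes, did not pass (log2 0.30 ± 0.14).

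Receptors for dying cells and for pathogens or cytokines went both ways. Of 11 clearance genes tested 5 rose and 2 fell, with a median of 0.30, where 18.9% of all genes rose and 18.7% fell. The phosphatidylserine receptor Havcr2 (TIM-3) rose 1.81-fold and the kinase receptor Mertk 1.58-fold. Axl, a receptor of the same family as Mertk, fell 1.69-fold from 24.9 to 51.8 CPM to 14.8 to 28.5 CPM, and the scavenger receptor Cd36 fell 5.85-fold from 1.79 to 3.65 CPM to 0.222 to 0.703 CPM. Gas6, a ligand of Axl and Mertk, was at 246 to 409 CPM at E13.5 and 280 to 392 CPM at E15.5 and did not pass (log2 -0.08 ± 0.14). Of 26 pathogen and cytokine receptors tested 11 rose and 3 fell, with a median of 0.40, beside the same 18.9% and 18.7%. The members of the list were taken from the study. Ifngr1, a chain of the interferon gamma receptor, rose 1.84-fold, from 302 to 359 CPM to 561 to 688 CPM (log2 0.88 ± 0.10, SE, adjusted p = 1.70e-05, edgeR). Il6ra (the interleukin 6 receptor) rose 2.00-fold and Tlr2 (a receptor for bacterial lipoproteins) 1.43-fold, whereas Il17ra (the interleukin 17 receptor) fell 1.64-fold. Tlr3, which senses double-stranded RNA, was at 13.3 to 29.7 CPM at E13.5 and 14.5 to 31.4 CPM at E15.5 and did not pass (log2 0.50 ± 0.21).

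Genes of the cell cycle fell, in cells that the rule held to 1 UMI of Top2a plus Mki67. Members were not free of such RNA. After thinning to 4000 UMIs the dividing-cell markers Ube2c and Cdk1 were found in 8.39% and 9.64% of them. In dividing microglia, defined below, they were found in 59.5% and 58.5%. Without thinning, Top2a was found in 15.0% to 23.1% of members at E13.5 and 2.63% to 10.7% at E15.5. Of 35 genes on the list, all tested, 34 fell and 0 rose, with a median of -1.45, where 18.7% of all genes fell. Cdc6 (which loads the replicative helicase) fell 5.51-fold, Birc5 (survivin) 5.5-fold, Ccne2 (cyclin E2) 5.16-fold and Ccnb1 (cyclin B1) 4.83-fold. Cdk1, the kinase of mitotic entry, fell 2.27-fold, and Plk1, a mitotic kinase, did not pass (log2 -1.37 ± 0.56). Among histone genes of S phase 11 of 14 tested fell and 0 rose, with a median of -1.27, and their near-identical sequences make single counts uncertain. Birc5 at E15.5 was at 35.1, 3.64 and 4.96 CPM after saline and 7.07, 4.99 and 4.11 CPM after MIA, with saline replicate 1 the highest. Without that library the median of the cell-cycle list was -1.92, and within the saline libraries 15 of its genes fell. Top2a was at 10.6 ± 2.82 CPM at E13.5 and 4.11 ± 2.13 CPM at E15.5, and Mki67 at 7.53 ± 2.01 and 2.63 ± 2.29 CPM (SD, n = 6 each). Both were bounded by the rule and moved with these genes, and their part in the result was not tested.

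The subunits Mcm6 and Mcm5 of the replicative helicase fell together (Mcm5 was chosen after its values and sequence were seen). Mcm6 was at 78.2, 93.2 and 97.9 CPM after saline and 77.2, 104 and 92.4 CPM after MIA at E13.5, and at 43.6, 34.3 and 30.9 CPM after saline and 23.8, 30.9 and 30.8 CPM after MIA at E15.5. Mcm5 was at 47.0, 74.7 and 71.0 CPM after saline and 44.0, 84.4 and 64.3 CPM after MIA at E13.5, and at 29.4, 18.3 and 17.6 CPM after saline and 13.3, 17.0 and 16.6 CPM after MIA at E15.5. For both genes the ages did not overlap, and the changes were -1.5 ± 0.13 (Mcm6) and -1.8 ± 0.19 (Mcm5) on the log2 scale. Their upstream sequences are shown because they hold a string known as a site of E2F factors, which drive genes of DNA replication. The strings searched for on both strands, in the 250 bases before each RefSeq start, were TTTCCCGC and TTTGGCGC for E2F and GAGGAAGT for PU.1. Neither E2F string contains the other. Capitals mark the matches to E2F strings, or to their reverse complements, in Mcm6 (chr1:128359706-128359955, minus strand) and Mcm5 (chr8:75109259-75109508, plus strand), both in GRCm38.p6 and 5′ to 3′.
Mcm6: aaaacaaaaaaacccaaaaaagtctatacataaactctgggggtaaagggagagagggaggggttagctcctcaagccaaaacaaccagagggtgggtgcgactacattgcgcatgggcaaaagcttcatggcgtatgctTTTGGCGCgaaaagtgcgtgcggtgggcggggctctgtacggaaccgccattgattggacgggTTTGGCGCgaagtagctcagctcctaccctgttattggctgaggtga
Mcm5: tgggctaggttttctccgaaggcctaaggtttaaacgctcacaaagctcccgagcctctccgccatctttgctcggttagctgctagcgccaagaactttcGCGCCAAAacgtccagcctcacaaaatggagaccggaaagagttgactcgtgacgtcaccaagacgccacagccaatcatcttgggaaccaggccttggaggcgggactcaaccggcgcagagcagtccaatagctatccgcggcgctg

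An E2F string was found in 4 of 29 cell-cycle genes with a RefSeq promoter (13.8%), namely Mcm5, Mcm6, Mcm7 and Cdc6, in 1 of 29 homeostatic genes (3.45%), in 2.97% of 9475 tested genes and in 1.51% of all 27025 genes with a promoter. Among the 10 largest falls it was in 2 of the 6 with a promoter. The PU.1 string was in 0 of 29 homeostatic genes, 1 of 29 cell-cycle genes and 3.17% of tested genes. These counts describe letters in a short window and say nothing of where the factors bind.

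The counts of falls in the lists that follow stand beside 18.7% of all genes that fell and 18.9% that rose. Of 76 nuclear genes of oxidative phosphorylation tested 49 fell and 1 rose, with a median of -0.57, led by Atp5k (a subunit of the ATP synthase, 2.33-fold lower), Cox7a1 (of complex IV, 2.31-fold lower) and Ndufa12 (of complex I, 2.15-fold lower). Within 1 treatment 14 fell in the saline and 33 in the MIA libraries. Of 13 genes of the mitochondrial genome 6 fell, but 0 did without both libraries under 100 members. Of 38 proteasome genes 26 fell and 0 rose, with a median of -0.47, Psmb7 by 1.94-fold. Of 12 heat shock genes 5 fell and 0 rose, and calls in either direction were near the 37.5% over all genes. The ages did not overlap for 4 of the 12 (33.3%). The falls included the mitochondrial chaperone Hspd1 (2.07-fold) and Hsp90aa1 (1.98-fold). Of 21 genes of the endoplasmic reticulum stress response 10 fell, and the ages did not overlap for 1 of the 21 (4.76%, against 16.4% of all genes). Among those that fell were the chaperone Hspa5 (1.44-fold) and asparagine synthetase Asns (3.26-fold). Hspa1a, a chaperone induced by heat, was at 0.283 to 10.6 CPM at E13.5 and 0.533 to 5.67 CPM at E15.5 and did not pass (log2 -0.78 ± 0.80). Of 81 translation genes 3 rose and 11 fell, with a median of 0.02, and the many pseudogenes of ribosomal proteins make their counts uncertain.

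**Figure D4:**
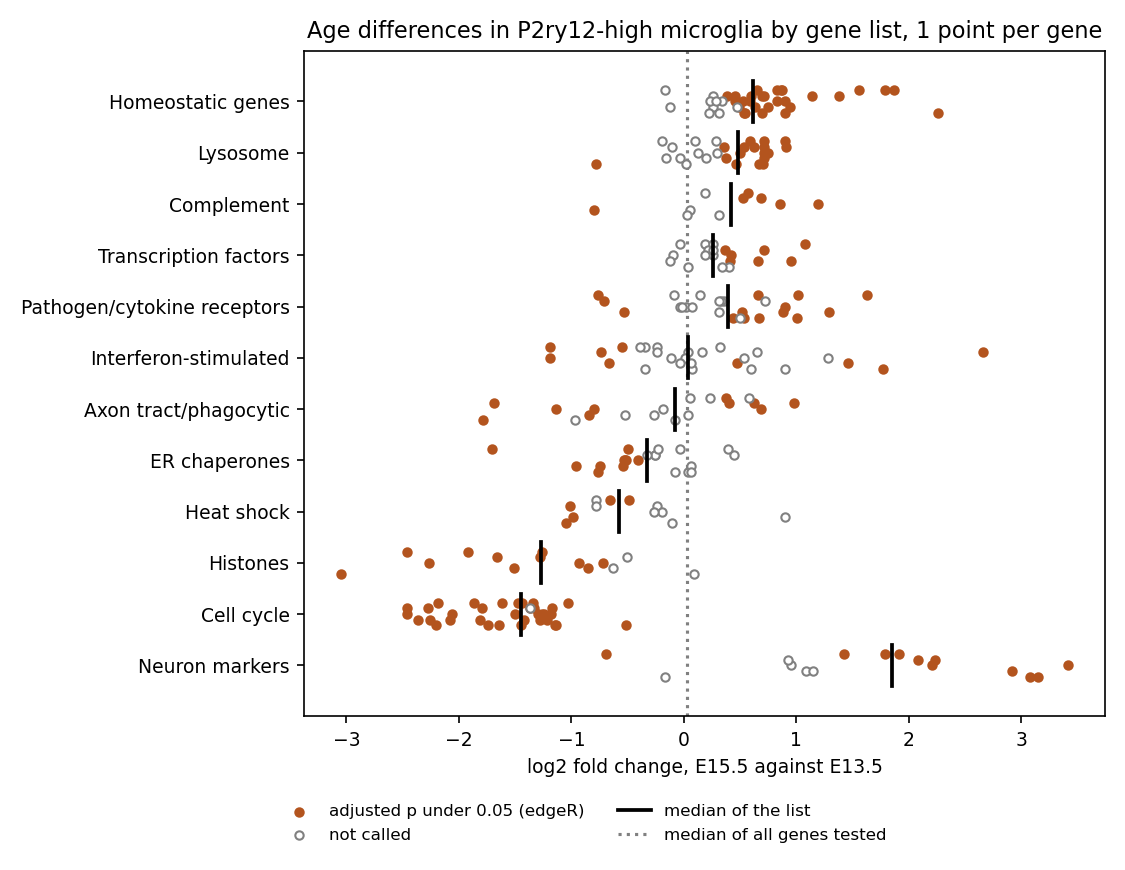
Log2 fold change of E15.5 against E13.5 (horizontal axis) in P2ry12-high microglia for the genes of 12 lists, 1 point per gene. Filled points passed an adjusted p of 0.05 (edgeR), open points did not, black bars are list medians and the dotted line is the median of all genes, 0.03. The homeostatic list lies to the right (median 0.62) and the cell-cycle list to the left (median -1.45).

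Of 19 genes of axon-tract-associated or phagocytic microglia 5 rose and 5 fell, where 18.9% of all genes rose and 18.7% fell. Besides Lgals1 and Lpl the cytokine Mif fell 2.20-fold, while the growth factor Igf1 rose 1.97-fold. Apoe, at 5662 to 7327 CPM at E13.5 and 4885 to 8558 CPM at E15.5, did not pass (log2 0.23 ± 0.13). Of 27 interferon-response genes 4 rose and 5 fell, a share near the 37.5% called over all genes, with a median of 0.04. Cxcl10, a chemokine induced by interferon, rose 6.33-fold from 0 to 7.54 CPM to 7.02 to 49.4 CPM, and Ifi27l2a fell 2.28-fold from 87.9 to 252 CPM to 40.0 to 125 CPM. When the rule was applied after thinning, 12 interferon genes rose and 3 fell, with a median of 0.40. Of 19 chemokine and cytokine genes 5 rose and 2 fell, again near the share over all genes, with Nfkbia (an inhibitor of NF-kappaB) 1.93-fold higher and Il1b (interleukin 1 beta) 1.89-fold lower. Of 11 genes of antigen presentation 1 rose, Cd74 (the invariant chain, 1.63-fold), and B2m was at -0.03 ± 0.10 on the log2 scale.

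Of 17 border macrophage genes tested 3 rose and 2 fell, a share below the 37.5% called over all genes, with a median of -0.09 whose sign changed between settings. Mrc1, the mannose receptor, rose 1.53-fold from 67.5 to 92.5 CPM to 65.7 to 175 CPM, and Cbr2, a carbonyl reductase, rose from 0 to 0.927 CPM to 2.36 to 4.71 CPM. Pf4, a chemokine, was at 3.74 to 19.5 CPM at E13.5 and 2.04 to 6.51 CPM at E15.5 and did not pass (log2 -0.71 ± 0.40). The summed level of 18 such genes was 1446 to 2007 CPM at E13.5 and 1498 to 2284 CPM at E15.5, with 0 to 3 of them at 0 in a library. In lipid and iron metabolism 2 of 20 genes rose and 4 fell, which is also below that share. The iron exporter Slc40a1 (ferroportin) rose 2.21-fold, from 48.0 to 73.1 CPM to 102 to 150 CPM, and the iron importer Tfrc (the transferrin receptor) fell 3.33-fold, from 10.8 to 21.0 CPM to 2.93 to 6.37 CPM.

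Of 16 immediate-early genes 5 rose and 0 fell, a share below the 37.5% called over all genes (18.9% rose), with a median of 0.54, which was -0.05 without E15.5 MIA replicate 1. Their summed level was 556 to 723 CPM at E13.5, 2306 CPM in that library and 727 to 880 CPM in the other E15.5 libraries, which lay above E13.5 without it too. Btg2, an antiproliferative factor, rose 2.13-fold from 25.2 to 34.5 CPM at E13.5 to 55.1 to 90.8 CPM at E15.5. Fos, a subunit of the AP-1 factor, was at 0 to 8.28 CPM at E13.5 and, at E15.5, at 1.66, 1.24 and 1.24 CPM after saline and 97.4, 1.11 and 1.88 CPM after MIA. Its log2 value of 0.80 ± 1.13 became -1.59 without E15.5 MIA replicate 1. The transcription factor Egr1 was at 2.59, 5.02 and 3.50 CPM after saline and 81.7, 2.18 and 6.25 CPM after MIA at E15.5, with a log2 value of -1.37 without that library.

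RNA of neurons and red blood cells was counted in members at low levels. Of 16 neuron genes 10 were higher at E15.5 and 1 was lower, where 18.9% of all genes were higher and 18.7% lower, with Tubb3 at 1.98 to 7.85 CPM at E13.5 and 3.59 to 90.0 CPM at E15.5. The summed level of the list was 83.5 to 141 CPM at E13.5 and 76.5 to 503 CPM at E15.5, highest in E15.5 MIA replicate 1, with 0 to 5 of the genes at 0 in a library. Of 5 globin genes tested 3 were higher at E15.5, beside the same shares over all genes, and the summed level of 7 globin genes was 1.35 to 104 CPM at E13.5. At E15.5 it was 102, 446 and 370 CPM in saline replicates 1 to 3 and 15.6 to 39.6 CPM in the MIA libraries, so that 4 of 6 libraries lay within the range at E13.5. Of 3 blood myeloid genes and 4 vascular genes tested 0 were called. The summed level of 3 blood myeloid genes was 527 to 692 CPM at E13.5 and 528 to 651 CPM at E15.5. The part of such RNA in the changes given above was not tested.

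Members at P14, outside the comparison, are given as a description of the later level of these genes. Selplg was at 142 ± 18.7 CPM at E13.5, 372 ± 36.3 CPM at E15.5 and 2692 ± 201 CPM at P14 (SD, n = 6 at each age). Tmem119 was at 1478 ± 47.3 CPM at P14, Sparc at 7257 ± 761 CPM, Ecscr at 549 ± 23 CPM and Adgrg1 at 362 ± 11.2 CPM. For these 5 genes every P14 library lay above every embryonic library. Lpl was at 42.5 ± 10.6 CPM at P14, Lgals1 at 4.15 ± 1.07 CPM, Hells at 3.82 ± 0.726 CPM, Axl at 1.69 ± 0.310 CPM and Apoe at 1466 ± 135 CPM. For the latter 5 every P14 library lay below every embryonic library.

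Members also differed among themselves with their P2ry12. Within each library they were divided into terciles of P2ry12 per 10000, and the upper and lower terciles were set side by side as a description, since the division used the same cells' counts. Over the 12 libraries the median log2 ratio of upper to lower was 1.17 for Sparc, 1.15 for Ecscr, 1.10 for Selplg and 0.94 for Tmem119, each higher in 12 of 12 libraries, and 0.32 for Crybb1, higher in 11. Hmox1 (haem oxygenase 1) at -1.93, Fabp5 (a fatty acid carrier) at -1.91, Lgals1 at -1.39 and Lpl at -0.77 were lower in the upper tercile, in at least 10 of 12 libraries each. Depth differed between the terciles at E13.5, where medians were 3350 to 22670 UMIs in the upper and 10812 to 28104 UMIs in the lower, and less at E15.5, with 7727 to 11698 and 9237 to 11993 UMIs.

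Beside Ms4a7-positive barcodes and those with less P2ry12 of the same libraries, members stood apart in genes the rule did not name, again as a description. Against Ms4a7-positive barcodes the median log2 ratio was -5.64 for Pf4, -2.87 for Ms4a6c, -2.68 for Mrc1, 1.82 for Sparc and 1.35 for Sall1. Against barcodes with Csf1r and C1qa but less P2ry12, it was 1.40 for Sparc, 1.17 for Tmem119 and -2.27 for Hmox1. Those barcodes had a median of 1298 to 4210 UMIs in a library and held Tubb3 in 22.4% at 4000 UMIs. In dividing microglia, compared next, Mrc1 was found at 4000 UMIs in 21.6% and Pf4 in 2.24%, near the 21.5% and 1.40% of members. Tmem119 was found in 54.5% of dividing microglia and 69.3% of members.

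The change with age was then set against that in dividing microglia, 9716 barcodes with 2 or more UMIs of Top2a plus Mki67 and no Ms4a7. In a fit with a term for each library, the age effect differed between the classes for 2659 of 12460 genes tested (21.3%), 1252 of them with a more positive and 1407 with a more negative change in members (edgeR quasi-likelihood test, adjusted p under 0.05). The more positive calls were 47.1% of all, but 36.1% with RLE size factors and 35.3% by DESeq2. Without E13.5 MIA replicate 3 the count was 1662. Homeostatic genes changed more positively in members for 29 of 38 and more negatively for 0, and lysosomal genes for 21 and 1 of 28. All 35 cell-cycle genes changed more negatively in members, as did 47 of 77 genes of oxidative phosphorylation, and the median over all genes was 0.02. The classes were separated at both ages by Top2a and Mki67, themselves genes of the cell cycle. The counts for the cell-cycle list are thus bound up with the rule and are a description only. Dividing microglia had no limit on P2ry12, Spp1, Ccl3 or Ccl4. After thinning to 4000 UMIs P2ry12 was found in 92.1% of dividing microglia and 99.5% of members. The part of these choices in the differences was not tested.

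No gene passed the threshold for MIA in members. At E13.5, 0 of 10206 genes tested passed (0%), with 111 (1.09%) at an unadjusted p under 0.05 by edgeR, and DESeq2 called 2. Without the shared barcodes 6 passed. At E15.5, 0 of 12777 genes passed (0%), with 47 (0.368%) at an unadjusted p under 0.05, and DESeq2 called 3. The MIA effect differed between the ages for 0 of 12413 genes (0%), with 62 (0.499%) unadjusted and 0 by DESeq2. Without any effect, a share of 0.05 of genes would on average reach an unadjusted p under 0.05. The shares here lay below that, so that these tests were conservative and 0 calls do not show an absence of MIA effects. In E13.5 members the lowest p belonged to Nme2, a nucleoside diphosphate kinase, which was at 50.1, 22.5 and 23.9 CPM after saline and 81.9, 88.4 and 73.0 CPM after MIA. These groups did not overlap, but the adjusted p was 0.155 (log2 1.37 ± 0.23, edgeR), and it passed in 8 of 18 settings. Nme2 has close copies in the genome, and its count is uncertain.

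The 3 genes that DESeq2 called at E15.5 were the globin genes Hba-a2, Hbb-bs and Hbb-bt, all lower after MIA. Hbb-bs, of adult beta globin, was at 46.2, 197 and 138 CPM after saline and 15.7, 17.5 and 6.85 CPM after MIA, and globin genes have near-identical copies that make their counts uncertain. Zfp36, which degrades cytokine RNAs, was at 33.6, 33.4 and 19.7 CPM after saline and 136, 33.0 and 28.5 CPM after MIA, and Ier2, an immediate-early gene, at 22.6, 11 and 10.9 CPM and 117, 9.87 and 11.1 CPM. In both genes MIA replicate 1 was the highest. The interferon list had a median of -0.16 at E13.5 and -0.12 at E15.5 after MIA, with 0 genes called of 24 and of 27 tested. Ifit3, of that list, was at 13.9, 1.63 and 16.5 CPM after saline and 3.38, 0 and 1.42 CPM after MIA at E13.5, with overlap. It passed in 3 of the other settings, and without saline replicate 2 it was the only gene called, lower after MIA. Tlr3 was at 29.7, 13.3 and 16 CPM after saline and 21.0, 14.5 and 13.6 CPM after MIA at E13.5 (log2 -0.28 ± 0.28). Il17ra was at 77.9, 59.4 and 47.0 CPM and 67.0, 70.7 and 47.6 CPM (log2 -0.03 ± 0.19). For both receptors the treatments overlapped, and at E15.5 the log2 values were -0.12 ± 0.29 and -0.16 ± 0.20, which did not pass. Of 38 homeostatic genes 0 passed at either age, with medians of -0.04 and 0.06. Of 35 cell-cycle genes 0 passed at E15.5, with a median of -0.53 that was 0.04 without saline replicate 1.

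**Figure D5:**
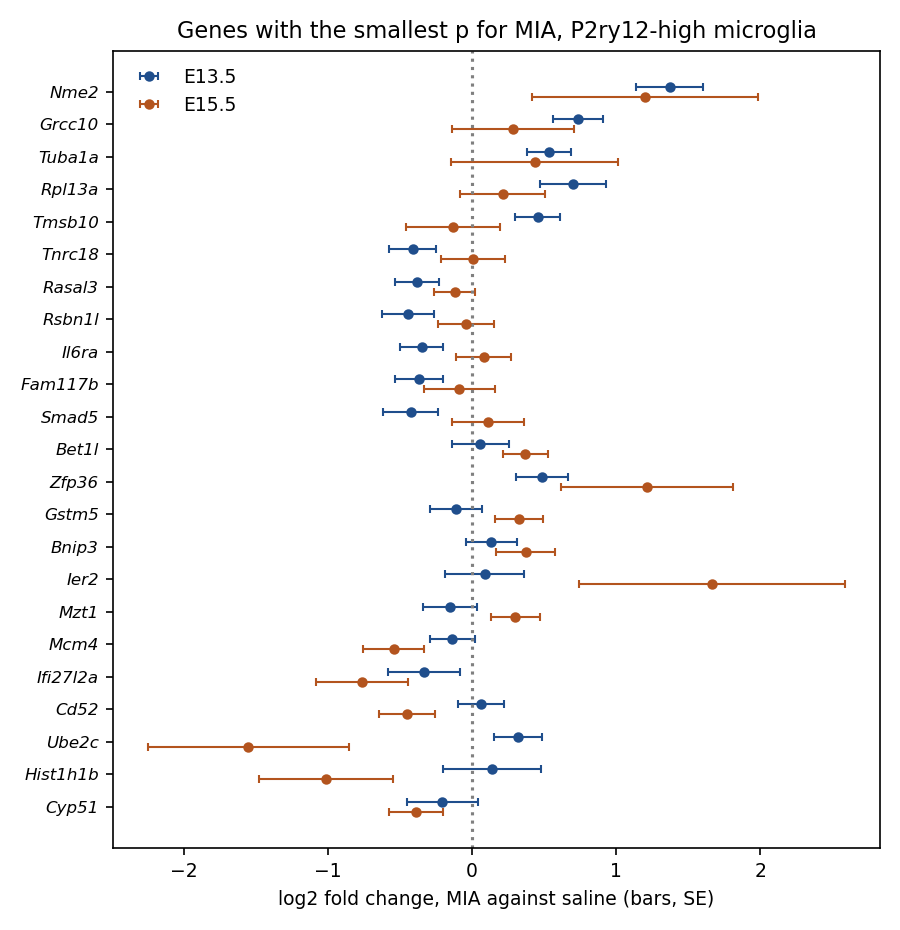
Log2 fold change of MIA against saline (horizontal axis) in P2ry12-high microglia at E13.5 and E15.5 for genes with the smallest p in either comparison. Points are fitted values and bars their SE. Nme2 has the largest value at E13.5 among them (1.37 ± 0.23), and none of the genes passed the adjusted threshold in either comparison.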

How the data were processed

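Single-cell libraries were made by the 10x 3′ method. The authors deposited UMI counts per gene and barcode, made with Cell Ranger 3.1.0 per the file headers and the submitters' processing notes on the mm10 build (the study's methods name another version), and no further normalization had been applied. The members, gene lists and tests were chosen with earlier results of these data known. The pathogen receptor list came from the study.

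Counts of members were summed per library. Sums were tested with edgeR 4.0.16 (TMM, filterByExpr, quasi-likelihood test, adjusted p under 0.05) under R 4.3.3, in all 12 libraries for age with treatment as a term, within an age for MIA, and with a term for each library for the comparison of classes. CPM values are UMIs per 1000000 of the same members' UMIs. Shares were compared by exact two-sided permutation of libraries within treatment or age (400 or 20 arrangements, 2-sided, smallest p 0.005 and 0.1). Ratios between classes had 5 CPM added to each level. DESeq2 1.42.0 and the alternatives in the closing section were run beside these. Cells were handled with Python 3.11.15 and scanpy 1.11.5. No doublets were removed in the main results. An alternative removed the highest Scrublet scores at a rate of 0.8% per 1000 barcodes.

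Genes named for age had a mean of at least 50 CPM and were the 10 largest called rises and falls, with up to 4 called genes of each list and its best-known genes that were not called. For MIA the 6 smallest p in each direction above 20 CPM were taken, and for the classes 5. Predicted genes, Xist and Y-linked genes were left out, and some genes that the rule names are not reported here. Selplg, Cst3, Mcm5, Hmox1, Fabp5, Axl, Ifit3 and Ms4a6c values beyond that rule were chosen after they were seen. At E15.5 the deviations of libraries with the same replicate number had correlations of 0.645, 0.217 and 0.564, against -0.605 to 0.279 between different numbers. The labels name no pairs, and the main tests were not paired. The replicate number entered only in alternatives, as a block or to pair libraries. Promoter sequences are from RefSeq (GRCm38.p6). P14 libraries were used for levels only, and nuclei libraries were not analysed here.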

Additional observations from a re-analysis of the deposited data

Results flagged for a closer look

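The change with age differed between P2ry12-high cells and dividing microglia of the same libraries for 2659 genes, by a test of the difference itself (edgeR, adjusted p under 0.05). The 10 genes with the smallest p, 5 in each direction, are given with their levels as means over 6 libraries at each age, and each was called in all 15 other settings tried.

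Of those that changed more positively in P2ry12-high cells, the nuclear RNA Malat1 went from 6774 to 16853 CPM there and from 8166 to 12322 CPM in dividing cells, a difference of 0.77 on the log2 scale. The chloride transporter gene Slc12a2 went from 120 to 231 CPM and from 98.1 to 117 CPM (difference 0.69). The splicing-related gene Rsrp1 went from 290 to 507 CPM and from 276 to 337 CPM (0.54), the adaptor Fyb from 342 to 650 CPM and from 330 to 452 CPM (0.50), and the transcription factor Maf from 841 to 1113 CPM and from 784 to 783 CPM (0.43).

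Of those that changed more negatively, the tubulin gene Tubb4b went from 154 to 60.1 CPM in P2ry12-high cells and from 358 to 426 CPM in dividing cells, a difference of -1.61. The histone variant H2afx went from 51.4 to 30.9 CPM and from 262 to 418 CPM (-1.43), and H2afz from 1021 to 486 CPM and from 1866 to 2084 CPM (-1.23). Tuba1c went from 148 to 72.4 CPM and from 304 to 292 CPM (-0.94), and Tuba1b from 886 to 429 CPM and from 1399 to 1315 CPM (-0.94). Tubulin and H2A variant genes have close copies, so that their counts are uncertain. The classes were separated by Top2a plus Mki67, genes of the cell cycle, of which dividing cells had to hold 2 or more UMIs at both ages. They also differed by the limits on P2ry12, Spp1, Ccl3 and Ccl4 that P2ry12-high cells alone had to meet. The part of these choices in the differences was not tested.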

How the results depend on the processing

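The rise of the share with age was 43.7 points within saline and 46.5 points within MIA libraries (exact permutation p = 0.1 each, the smallest 3 against 3 libraries allow), and 41.6 to 49.7 points with 1 library left out. For MIA the share difference at E13.5 was -0.947 points without shared barcodes, and at E15.5 it was -5.05 points without saline replicate 1 (-5.05 to 11.2 over the libraries left out). Genes called for age numbered 1690 and 1534 within saline and MIA libraries and 3741 to 5231 with 1 library left out. For MIA at E13.5, where 0 genes were called, the count was 24 with no low-count filter and 2 by DESeq2. It was 0 to 9 with 1 library left out (9 without MIA replicate 3, 2 without saline replicate 1, 1 without saline replicate 2). It was 2 with P2ry12 at 10 per 10000 and 6 without shared barcodes. With the share of members holding an Xist or Tsix UMI as covariate it was 1. For MIA at E15.5 it was 3 by DESeq2. The comparison with dividing cells gave 1662 calls without E13.5 MIA replicate 3 and 1662 to 2699 over the libraries left out. Isg15 had a log2 change of 1.05 with age when the rule followed thinning, and Fos -1.59 and Egr1 -1.37 without E15.5 MIA replicate 1 (up to 1.96 and 0.32 without others). The causes were not tested beyond what the settings themselves remove. Shared barcodes, libraries within 1 treatment and the removal of both libraries under 100 members were chosen after seeing the data.

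With the replicate number as a block, 15 genes were called for MIA at E13.5. There the deviations of same-numbered libraries had correlations of 0.244, 0.0213 and 0.328, against -0.349 to 0.12 between different numbers. At E15.5 the block left 0 called with 344 at an unadjusted p under 0.05. For age, a block of replicate number within each age gave 6412 calls. The share was instead compared between E13.5 and E15.5 libraries of the same number and treatment, pairs that no label gives. Its difference was 45.1 points (exact sign-flip test, p = 0.0312, the smallest that 64 arrangements allow). Of the values of single named genes under other settings, 3615 for age kept their direction and call, 123 lost the call, 42 gained one and 3 reversed. The lost calls fell on 27 genes, with 18 lost without both libraries under 100 members and 11 without the shared barcodes. The number of members limits E13.5 MIA replicates 1 and 2 most, with 60 and 78.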
